A study of Mus musculus with 6 samples.

Results

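The 34 genes described here encode the enzymes and exit transporters of glycolysis and the core of the response to low oxygen. They were taken by gene symbol from a list of 22 glycolysis and lactate genes and 12 hypoxia genes, and each matched 1 of the 37991 Ensembl gene IDs in the count table. All 34 were abundant enough to be among the 16420 genes tested. The cells were PGCLCs, short for primordial germ cell-like cells, made in culture from mouse embryonic stem cells by way of epiblast-like cells as a stand-in for nascent germ cells. Both groups came from C57BL/6 stem cells with floxed Ezh2 and a tamoxifen-dependent Cre recombinase, and were collected on day 4 of PGCLC induction. The 3 Ctrl libraries (genotype Ezh2f/f, CreERT2) were from aggregates that received ethanol, and the 3 Ezh2 KO libraries (genotype Ezh2-/-, CreERT2) were from aggregates that received 4-hydroxytamoxifen in ethanol, which activates the recombinase. Aggregates grew with BMP2, SCF, LIF and EGF, were dissociated and sorted, and their RNA went through a low-input library kit. Controls for the drug without the floxed alleles were not analysed here. The labels name 1 genotype of stem cells and do not say whether replicates were separate inductions. Any p-value here therefore reflects only how far these libraries differ, which may be partly technical.

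Glycolysis splits glucose into pyruvate. Hexokinase traps glucose in the cell, phosphofructokinase makes the step that commits it to the pathway, and pyruvate kinase makes the final one. Lactate dehydrogenase then interconverts pyruvate and lactate, and monocarboxylate transporters carry lactate across the membrane. Hypoxia-inducible factors are held down in oxygen by prolyl hydroxylases, which mark them for destruction; when oxygen is short they escape and switch on most glycolytic genes together with genes for blood vessel growth, acid balance and collagen processing. Pluripotent cells of the epiblast are known for high glycolysis, and mouse germ cells for a move towards oxidative metabolism as they mature. Ezh2 is the main methyltransferase of the polycomb complex that places H3K27me3, and the comparison asks which transcripts of PGCLCs depend on it.

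Total counts ranged from 27072150 to 49382146 per library. Ezh2 itself stood at 91.8, 78.1 and 95.3 CPM (counts relative to the TMM-scaled library total) in Ctrl replicates 1 to 3. In Ezh2 KO replicates 1 to 3 it stood at 40.8, 67.1 and 70.0 CPM. A count per gene does not part the deleted exons from the rest, and how complete the deletion was in each library was not tested. The 10 germ cell and pluripotency markers summed to 1652 to 1845 CPM in Ctrl and 1325 to 1741 CPM in Ezh2 KO, and all 10 were abundant enough to test. Each list for other cells held 8 genes, of which 7 trophoblast and 5 blood and endothelium markers were abundant enough to test. Only 4 neuroectoderm, 4 fibroblast and matrix, 3 mesoderm and 3 endoderm markers were, so these sums rest on few genes. Summed markers of other cells were 21.4 to 27.7 CPM for trophoblast and 4.33 to 10.9 CPM for mesoderm over all libraries. Neuroectoderm markers summed to 4.10 to 6.56 CPM in Ctrl and 2.86 to 3.80 CPM in Ezh2 KO, endoderm to 1.74 to 3.57 and 0.965 to 1.58 CPM, and fibroblast and matrix markers to 5.94 to 8.47 and 2.59 to 5.38 CPM. The 8 blood and endothelium markers summed to 117 to 200 CPM, of which Pecam1 held 112 to 194 CPM. Of the others Gata1 was highest, at 2.01 to 4.68 CPM, while Kdr was at 0.214 to 0.461 CPM and Cdh5 at 0.0618 to 0.865 CPM. Foxf1 (mesoderm) and Cer1 (endoderm) had 0 counts in every library. The part of these cells in the results was not tested, and in bulk RNA fewer cells of a type cannot be told apart from less RNA per cell.

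Hypoxia-inducible factors bind the core letters ACGTG or GCGTG, so the promoters of members whose values are described next are shown with these letters in capitals on either strand. The windows run from 250 bases before to 50 bases after the annotated start, 5′ to 3′ on the gene's strand, from RefSeq on GRCm38.p6, and were chosen after the expression values were seen. They are Ldha (chr7:46845554-46845853, plus strand), the member with the most ACGTG matches, Pgk1 (chrX:106186850-106187149, plus strand) and P4ha1 (chr10:59323046-59323345, plus strand). Slc16a3 (chr11:120948817-120949116, plus strand) is shown for its range between libraries, and Gpi1 (chr7:34230287-34230586, minus strand) as a promoter without either motif.
Ldha: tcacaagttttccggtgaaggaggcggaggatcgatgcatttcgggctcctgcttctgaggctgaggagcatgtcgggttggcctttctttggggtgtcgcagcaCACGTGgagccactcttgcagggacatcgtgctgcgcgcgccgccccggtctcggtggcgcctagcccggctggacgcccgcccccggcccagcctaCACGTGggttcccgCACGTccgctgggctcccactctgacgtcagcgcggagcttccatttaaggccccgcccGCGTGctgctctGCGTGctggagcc
Pgk1: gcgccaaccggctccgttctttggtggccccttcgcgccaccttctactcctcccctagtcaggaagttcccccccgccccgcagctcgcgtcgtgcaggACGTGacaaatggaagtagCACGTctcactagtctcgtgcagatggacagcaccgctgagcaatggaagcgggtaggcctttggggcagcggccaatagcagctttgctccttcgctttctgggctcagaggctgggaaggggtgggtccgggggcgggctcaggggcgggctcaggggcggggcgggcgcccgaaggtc
P4ha1: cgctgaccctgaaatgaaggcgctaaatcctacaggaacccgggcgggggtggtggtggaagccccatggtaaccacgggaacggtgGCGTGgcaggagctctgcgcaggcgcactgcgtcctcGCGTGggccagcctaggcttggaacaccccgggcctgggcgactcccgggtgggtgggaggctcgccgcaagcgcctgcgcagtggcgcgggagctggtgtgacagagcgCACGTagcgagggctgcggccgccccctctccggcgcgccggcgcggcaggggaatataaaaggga
Slc16a3: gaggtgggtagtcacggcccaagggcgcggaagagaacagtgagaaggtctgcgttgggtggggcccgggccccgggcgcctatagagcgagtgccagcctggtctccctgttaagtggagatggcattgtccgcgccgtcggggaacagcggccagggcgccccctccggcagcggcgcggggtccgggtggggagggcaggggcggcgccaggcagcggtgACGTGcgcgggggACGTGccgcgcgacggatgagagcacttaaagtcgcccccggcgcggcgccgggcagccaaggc
Gpi1: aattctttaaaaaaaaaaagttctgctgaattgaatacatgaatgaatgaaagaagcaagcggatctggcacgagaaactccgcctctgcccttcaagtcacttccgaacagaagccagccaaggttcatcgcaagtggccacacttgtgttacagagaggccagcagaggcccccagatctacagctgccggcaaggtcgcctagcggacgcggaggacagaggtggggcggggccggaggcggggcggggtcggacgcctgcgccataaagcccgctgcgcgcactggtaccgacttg
The Ldha window shown held 5 ACGTG matches and 2 GCGTG matches over both strands. Of these, 4 lie in 2 copies of CACGTG, which reads the same on both strands and is also the letters bound by Myc. The window at the other annotated Ldha start, not shown, held 0 ACGTG and 2 GCGTG matches. Pgk1 and Slc16a3 held 2 ACGTG matches each, and P4ha1 held 1 ACGTG and 2 GCGTG matches. RefSeq promoters were found for 32 of the 34 members, some with several starts; Epas1 and Ndrg1 had none. At least 1 window held ACGTG in 22 of the 32 members (68.8%), against 5886 of 27025 genes in the table (21.8%). Counted per window the shares were 52.1% of 48 and 19.6% of 32851. GCGTG was present for 21 of the 32 (65.6%, against 35.2% of all genes). Of the 9 members at an unadjusted p under 0.05 in the blocked edgeR fit below, 6 (66.7%) held ACGTG. The members were listed for pathways that these factors switch on, so the surplus over all genes is no result of these libraries. Such short words occur often in sequence rich in CG, and a match describes the letters only.

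Levels between genes are compared per kb of exon, with the exon lengths of GENCODE M21. In Ctrl the pathway was carried by Eno1 (enolase) at 1001 ± 326 CPM per kb (SD, n = 3), Pkm (pyruvate kinase) at 959 ± 349 and Aldoa (aldolase) at 817 ± 320. Next came Ldhb at 565 ± 97.8, Gapdh at 494 ± 226, Pgam1 (phosphoglycerate mutase) at 467 ± 134, Ldha at 327 ± 168 and Pgk1 (phosphoglycerate kinase) at 316 ± 113 CPM per kb. Neighbours among these 8 genes differed by less than the larger of their SDs. Other steps were lower, with Tpi1 at 116 ± 43.8, Pfkl at 98.1 ± 47.6, Gpi1 at 62.8 ± 28.5 and Hk2 at 20.6 ± 5.78 CPM per kb. By counts, Eno1 ranked between 3 and 18 among all genes over the 6 libraries, and Pkm between 4 and 25. Eno1 has a near-identical copy, Eno1b, which was credited with 19029 to 51967 counts per library, and Gapdh, Pgk1, Pgam1, Tpi1, Aldoa and Ldha have many processed copies, so their reads may be split and their levels are uncertain.

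**Figure D1:**
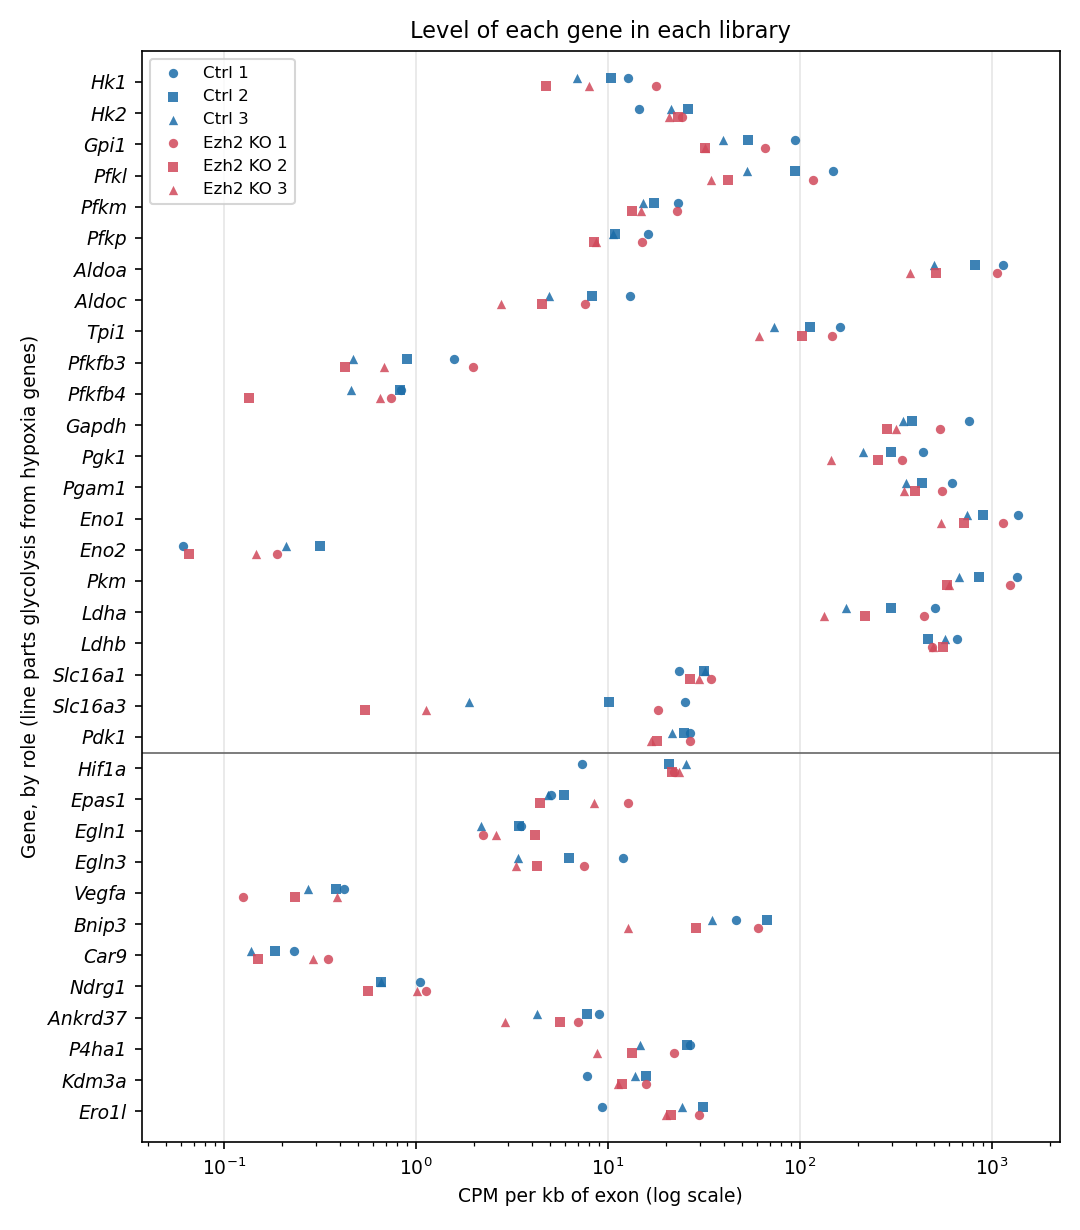
Level of each of the 34 genes in each of the 6 libraries, in CPM per kb of exon on a log axis, with 22 glycolysis genes above the line and 12 hypoxia genes below it; blue marks are Ctrl, red marks Ezh2 KO, and the marker shape gives the replicate number. Enzymes from aldolase to lactate dehydrogenase lie farthest right, while Eno2, Vegfa and Car9 lie lowest.

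The hypoxia genes lay below the 8 most abundant enzymes and overlapped the other glycolysis genes in level. Bnip3, a mitophagy receptor, led its group with 49.6 ± 16.5 CPM per kb in Ctrl, followed by P4ha1 at 22.3 ± 6.70 and Ero1l at 21.7 ± 11.3. Hif1a stood at 17.9 ± 9.40 CPM per kb and Epas1, which encodes the second oxygen-regulated factor, at 5.25 ± 0.551. The classical hypoxia markers Vegfa (0.359 ± 0.0778 CPM per kb) and Car9 (0.185 ± 0.0471) were near the bottom of the range. Car9 rested on 9 to 30 counts per library and Vegfa on 20 to 88.

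None of the 34 genes differed between Ezh2 KO and Ctrl after correction over all genes. The quasi-likelihood test of edgeR, adjusted by Benjamini-Hochberg over the 16420 tested genes, called 0 members (smallest adjusted p = 0.976), where it called 0.00% of all genes. At an unadjusted p under 0.05 it had 0 of 34 members, against 2.80% of all tested genes. Limma-voom called 0 members and 0.00% of all genes, and DESeq2 called 0 members and 5 genes in all (0.0200%). The Ezh2 KO libraries lay all above or all below the Ctrl libraries for 0 of 34 members, where 8.09% of tested genes showed such a parting. The median 95% interval of a member reached 0.85 to either side on the log2 scale, and 0.45 when the number of the replicate was a blocking term.

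The direction was mostly downward. A negative log2 fold change was found for 24 of 34 members (48.7% of tested genes), with a median of -0.25 against 0.01 for all tested genes. Among the 22 glycolysis genes 18 were negative, with a median of -0.28, and among the 12 hypoxia genes 6, with a median of 0.01. No label states that the replicate numbers pair the libraries. Same-numbered libraries were taken as pairs because their deviations from the group means correlated across genes (Pearson's r 0.58, 0.37 and 0.19). The third pair was weak, and Ctrl replicate 3 correlated better with Ezh2 KO replicate 2 (0.30). By these pairs 17 of 34 members were lower in Ezh2 KO in all 3, against 14.8% of tested genes. The reverse was found for 0 members, against 17.9% of tested genes. Of the 17, 14 were glycolysis genes, and the genes of one pathway are not independent of each other.

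The members were chosen with earlier results of these data known, and the block was taken from the same libraries, so the shares here are descriptive. With the replicate number as a block, 9 of 34 members (26.5%) were lower in Ezh2 KO at an unadjusted p under 0.05 in edgeR. Of all tested genes 3.12% were so. Members at that level and higher numbered 0, against 5.98% of tested genes. The 9 were Gpi1, Pfkl, Aldoa, Aldoc, Gapdh, Pgk1, Eno1, Ldha and P4ha1. None passed the correction over all genes, with adjusted p of 0.40 to 0.542 in the blocked edgeR fit, which called 0.00% of all genes. DESeq2 with the block called 0 members and 50 genes in all (0.281%), and its smallest adjusted p for a member was 0.0667, for Aldoc. Which members reached that level depended on the pairs. Without the replicate 1 pair 8 members did so as lower (5.26% of all genes), of which 4 were among the 9. In that fit 1 member, Bnip3, passed the correction (adjusted p = 0.00144 in the blocked edgeR fit), among 32 genes called. The pair left out there was the one with Bnip3 higher in Ezh2 KO (131% of its Ctrl library). Fits without a pair rest on fewer libraries and were added after the data were seen. Without the replicate 2 pair 9 did so as lower (2.22% of all genes), of which 7 were among the 9, and 2 as higher, Hk1 and Epas1 (4.05% of all genes). Without the replicate 3 pair 5 did so as lower (4.24% of all genes), of which 4 were among the 9 and the other was Vegfa. Gpi1, Pfkl and Aldoc were at that level in all 3 of these fits.

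**Figure D2:**
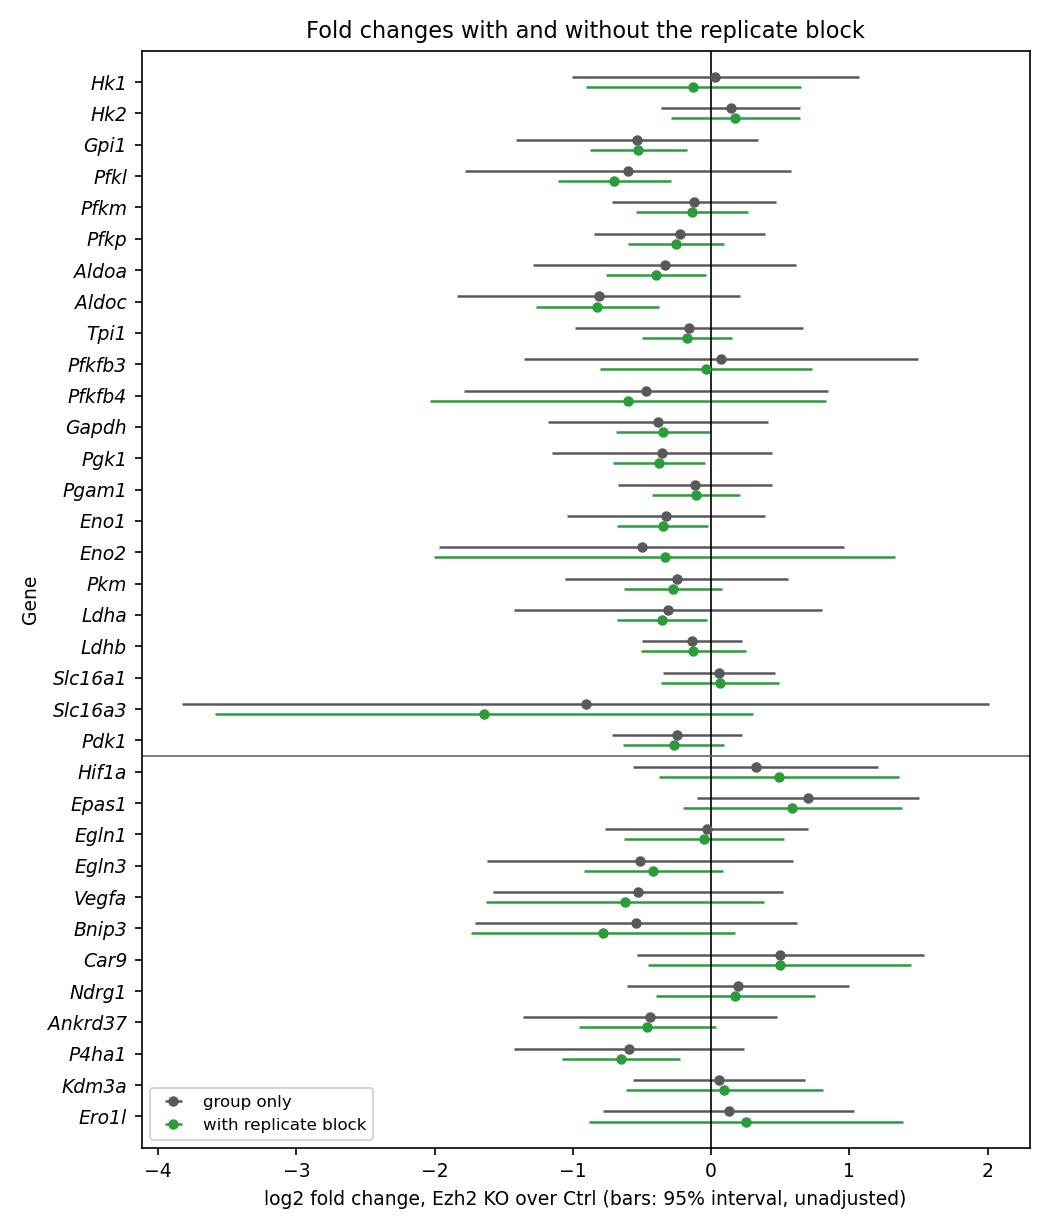
Log2 fold change of Ezh2 KO over Ctrl for the 34 genes with unadjusted 95% intervals from edgeR, for the fit with group only (grey) and the fit with the replicate block (green). All 34 grey intervals cover 0, and 9 green intervals lie wholly below 0.

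The hexose phosphate steps held 9 members, of which 7 were lower in Ezh2 KO in all 3 pairs. Hk1 and Hk2, the hexokinases, were not among them. Hk1 stood at 108, 88.4 and 58.7 CPM in Ctrl replicates 1 to 3 and at 152, 40.7 and 67.6 CPM in Ezh2 KO replicates 1 to 3, and Hk2 ranged from 86.7 to 155 CPM over all libraries. Gpi1 (ENSMUSG00000036427), which isomerizes glucose phosphate to fructose phosphate, was at 610, 348 and 257 CPM in Ctrl and 425, 207.2 and 207.1 CPM in Ezh2 KO. Each Ezh2 KO library was thus below its Ctrl counterpart, at 69.6%, 59.6% and 80.6% of it, while the groups overlapped through replicate 1. The log2 fold change of Gpi1 was -0.53 ± 0.38 (SE) with group only and -0.53 ± 0.16 with the block.

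Pfkl (ENSMUSG00000020277), the liver-type phosphofructokinase subunit, had the same arrangement with a larger spread. Its level was 986, 626 and 352 CPM in Ctrl and 784, 282 and 229 CPM in Ezh2 KO, or 79.5%, 45.0% and 65.2% of the paired library (blocked log2 fold change -0.70, 95% interval -1.11 to -0.29). Ezh2 KO replicate 1 exceeded 2 of the 3 Ctrl libraries. The other subunits lay closer together, with Pfkm at 44.3 to 76.8 CPM and Pfkp at 113 to 216 CPM over all libraries.

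Aldoa (ENSMUSG00000030695), the main aldolase, stood at 3317, 2367 and 1455 CPM in Ctrl and 3082, 1487 and 1090 CPM in Ezh2 KO. Replicate 1 was highest and replicate 3 lowest in either group. Aldoc (ENSMUSG00000017390), a brain-type aldolase, was far less abundant, at 42.4, 26.96 and 16.1 CPM in Ctrl and 24.8, 14.7 and 9.07 CPM in Ezh2 KO. Its paired ratios were the most even of the 17 members lower in all 3 pairs, at 58.6%, 54.7% and 56.2%. The blocked log2 fold change of Aldoc was -0.82 ± 0.20 SE (unadjusted p = 0.00217, adjusted p = 0.40 in edgeR), and -0.81 ± 0.45 SE without the block. Tpi1, triose phosphate isomerase, was at 83.4% to 91.3% of the paired Ctrl library.

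**Figure D3:**
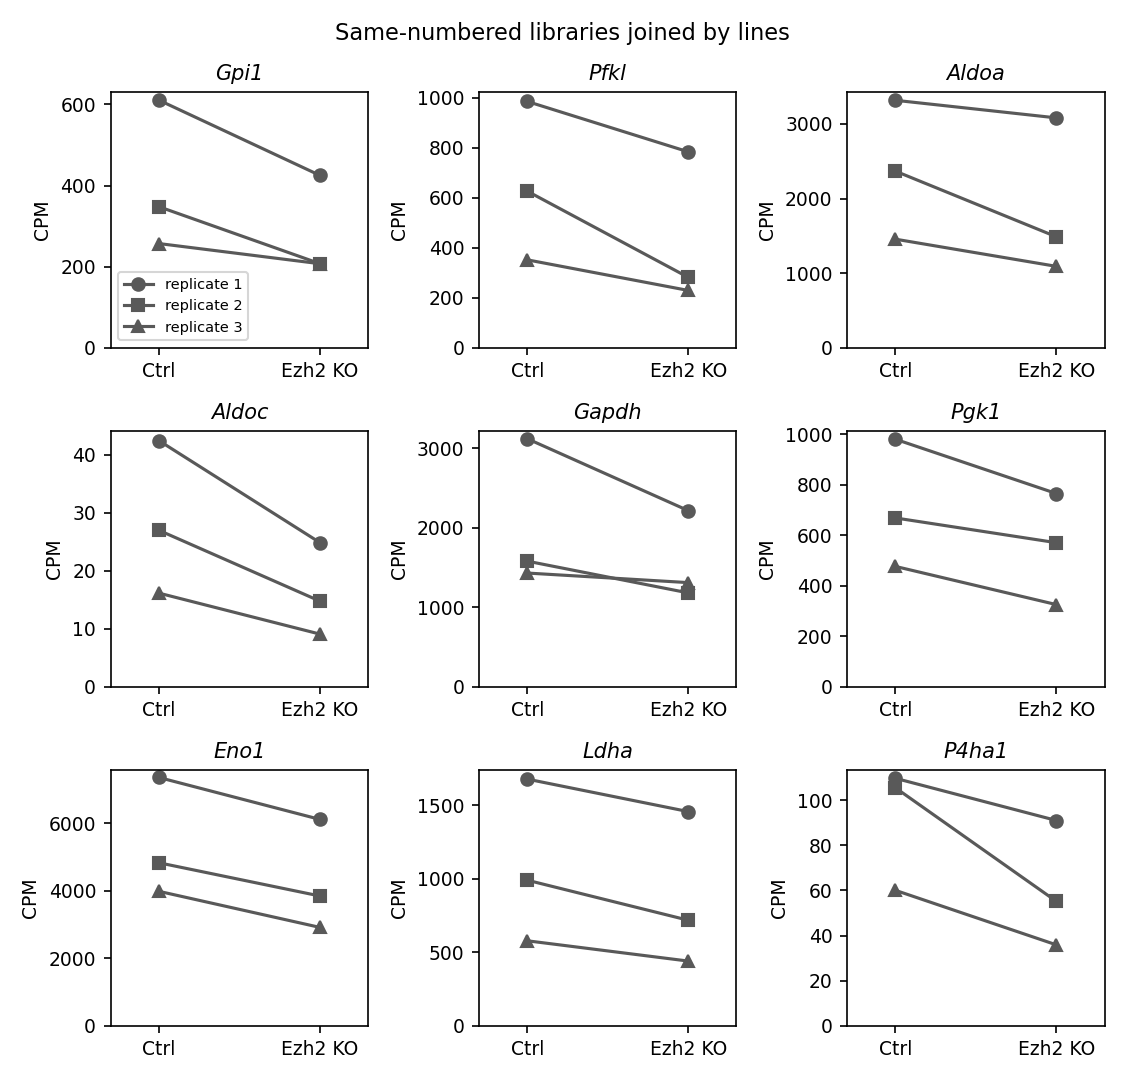
CPM of the 9 genes with an unadjusted p under 0.05 in the blocked edgeR fit, on axes that start at 0, with same-numbered Ctrl and Ezh2 KO libraries joined by lines. All 27 lines slope downward, and in each panel the Ctrl and Ezh2 KO values overlap.

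The bifunctional enzymes that set the level of the main activator of phosphofructokinase were scarce. Pfkfb3 was at 11.9, 6.78 and 3.54 CPM in Ctrl and 15.0, 3.24 and 5.16 CPM in Ezh2 KO, with group ranges that overlapped almost wholly. Pfkfb4 was at 2.23 to 4.08 CPM in Ctrl and 0.656 to 3.61 CPM in Ezh2 KO, the lowest value being replicate 2. The log2 fold change of Pfkfb3 was 0.072 ± 0.62 SE and turned to -0.038 with the block.

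From triose phosphate to pyruvate, 5 of 6 members were lower in Ezh2 KO in all 3 pairs. Gapdh (ENSMUSG00000057666), which makes the oxidative step, was at 3118, 1578 and 1429 CPM in Ctrl and 2214, 1179 and 1309 CPM in Ezh2 KO. This gene, often used as a constant reference, spanned a 2.64-fold range over the 6 libraries. Pgk1 (ENSMUSG00000062070), the first ATP-yielding enzyme, was at 980, 668 and 476 CPM in Ctrl and 765, 570 and 325 CPM in Ezh2 KO. Eno1 (ENSMUSG00000063524) stood at 7349, 4824 and 3978 CPM against 6108, 3840 and 2910 CPM, or 83.1%, 79.6% and 73.1% of the paired library. The blocked log2 fold changes of these 3 genes were -0.35, -0.38 and -0.35, each with an SE of 0.15.

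Pkm (ENSMUSG00000032294), which makes pyruvate, was at 6733, 4301 and 3350 CPM in Ctrl and 6190, 2931 and 2996 CPM in Ezh2 KO. All 3 pairs were lower in Ezh2 KO, but the pairs were uneven at 91.9%, 68.1% and 89.4%, and the blocked interval covered 0 (-0.28, 95% interval -0.63 to 0.08). Counts per gene do not part its M1 and M2 splice forms. Pgam1 was at 89.1% to 97.3% of the paired library. Eno2, the neuronal enolase, was near the limit of detection at 8 to 42 counts per library.

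At the exit of the pathway, Ldha (ENSMUSG00000063229), whose enzyme favours lactate, stood at 1679, 991 and 578 CPM in Ctrl and 1458, 718 and 440 CPM in Ezh2 KO. Values ran parallel in the 2 groups, with replicate 1 highest and replicate 3 lowest (86.8%, 72.5% and 76.1% of the paired library). Ldhb (ENSMUSG00000030246), whose enzyme favours pyruvate, was far steadier at 1037, 730 and 893 CPM in Ctrl and 767, 875 and 772 CPM in Ezh2 KO. Its highest library was 1.42 times its lowest, against 3.82 times for Ldha. Pdk1, a mitochondrial kinase that inhibits pyruvate dehydrogenase, was at 167 to 209 CPM in Ctrl and 131 to 209 CPM in Ezh2 KO.

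The 2 monocarboxylate transporters had very different ranges between libraries. Slc16a1 was at 104 to 142 CPM in Ctrl and 118 to 152 CPM in Ezh2 KO. Slc16a3 (ENSMUSG00000025161), the lactate exporter of glycolytic and hypoxic cells, was at 134, 53.7 and 10.05 CPM in Ctrl and 96.3, 2.90 and 6.00 CPM in Ezh2 KO. The range was 46.1-fold over all libraries, the widest of the 34 members, 13.3-fold within Ctrl and 33.2-fold within Ezh2 KO; this gene was singled out after its values were seen. The log2 fold change was -0.91 with a 95% interval of -3.83 to 2.01, and -1.64 with the block (-3.59 to 0.30). Without Ctrl replicate 1 the log2 fold change of Slc16a3 was 0.14, and without Ezh2 KO replicate 1 it was -3.88.

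Of the oxygen-regulated factors, Hif1a (ENSMUSG00000021109) was at 43.4, 122 and 150 CPM in Ctrl and 129, 127 and 138 CPM in Ezh2 KO. Ctrl replicate 1 stood apart below all the others, and without it the log2 fold change moved from 0.32 to -0.052. Epas1 (ENSMUSG00000024140) was at 28.1, 32.9 and 27.1 CPM in Ctrl and 70.8, 24.8 and 47.3 CPM in Ezh2 KO. Its log2 fold change of 0.70 ± 0.35 SE was the highest of the 34 members (unadjusted p = 0.0794, adjusted p = 0.976 in edgeR). Ezh2 KO replicates 1 and 3 exceeded every Ctrl library and replicate 2 lay below them all.

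The prolyl hydroxylases Egln1 and Egln3 mark the factors for destruction, and Egln3 is itself a Hif target. Egln3 was at 31.7, 16.6 and 9.06 CPM in Ctrl and 20.1, 11.4 and 8.84 CPM in Ezh2 KO, or 63.3%, 68.2% and 97.6% of the paired library. Egln1 was at 7.85 to 12.7 CPM in Ctrl and 8.05 to 14.9 CPM in Ezh2 KO, with no common direction.

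Among the 8 Hif targets, 4 had a negative and 4 a positive log2 fold change. P4ha1 (ENSMUSG00000019916), a subunit of the hydroxylase that stabilizes collagen, stood at 110, 106 and 60.0 CPM in Ctrl and 91.0, 55.1 and 35.8 CPM in Ezh2 KO. All pairs were lower (82.9%, 52.3% and 59.7%), and the blocked log2 fold change was -0.65 ± 0.19 SE, against -0.60 ± 0.36 without the block. Ankrd37 was lower in all 3 pairs too, at 77.8%, 72.1% and 67.9% of the Ctrl library. Bnip3 was at 105, 153 and 79.2 CPM in Ctrl and 138, 64.9 and 28.7 CPM in Ezh2 KO. Its pair of replicate 1 went the other way (131%) from those of replicates 2 and 3 (42.5% and 36.2%).

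The other targets showed no common direction. Kdm3a, a histone demethylase, and Ero1l, an oxidase of protein folding, were lowest in Ctrl replicate 1, at 64.2 and 49.4 CPM; the other libraries held 92.7 CPM or more of Kdm3a and 106 CPM or more of Ero1l. Their log2 fold changes of 0.057 and 0.13 became -0.19 and -0.24 without that library. Ndrg1 was at 4.33 to 6.89 CPM in Ctrl and 3.71 to 7.43 CPM in Ezh2 KO. Vegfa, the vessel growth factor, was at 1.17 to 1.81 CPM in Ctrl and 0.535 to 1.66 CPM in Ezh2 KO, and Car9, which handles acid at the cell surface, at 0.318 to 0.536 and 0.347 to 0.802 CPM.

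Differences between libraries of 1 group exceeded those between groups. The 17 enzymes from hexokinase to lactate dehydrogenase summed to 28002, 18070 and 14072 CPM in Ctrl and 23884, 13510 and 11499 CPM in Ezh2 KO. Replicate 1 was highest and replicate 3 lowest in each group, and the highest library was 2.44 times the lowest, while the Ezh2 KO mean was 81.3% of the Ctrl mean. By pair the sum stood at 85.3%, 74.8% and 81.7% of Ctrl. A member's highest library was a median of 2.98 times its lowest, against 1.99 times for all tested genes. Ctrl replicate 1 was the highest library for 20 of 34 members (24.1% of tested genes) and Ezh2 KO replicate 3 the lowest for 14 (12.3%). The size of the group difference moved with single libraries, but leaving out 1 library also breaks its pair. With whole pairs left out in the blocked edgeR fit, the members' median log2 fold change was -0.36, -0.18 and -0.34 without replicates 1, 2 and 3. Of the 34 members 29, 21 and 27 were then negative. With single libraries left out and group only, the median log2 fold change of the members was -0.029 without Ctrl replicate 1 and -0.077 without Ezh2 KO replicate 3. It was -0.45 without Ctrl replicate 3, and -0.66 without Ezh2 KO replicate 1, with 11 members at an unadjusted p under 0.05, all lower (32.4%, against 8.67% of tested genes in either direction). With group only, the log2 fold change of Gpi1 was -0.11 without Ctrl replicate 1 and -0.97 without Ezh2 KO replicate 1, that of Pfkl -0.18 and -1.36, and that of Aldoc -0.41 and -1.26.

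**Figure D4:**
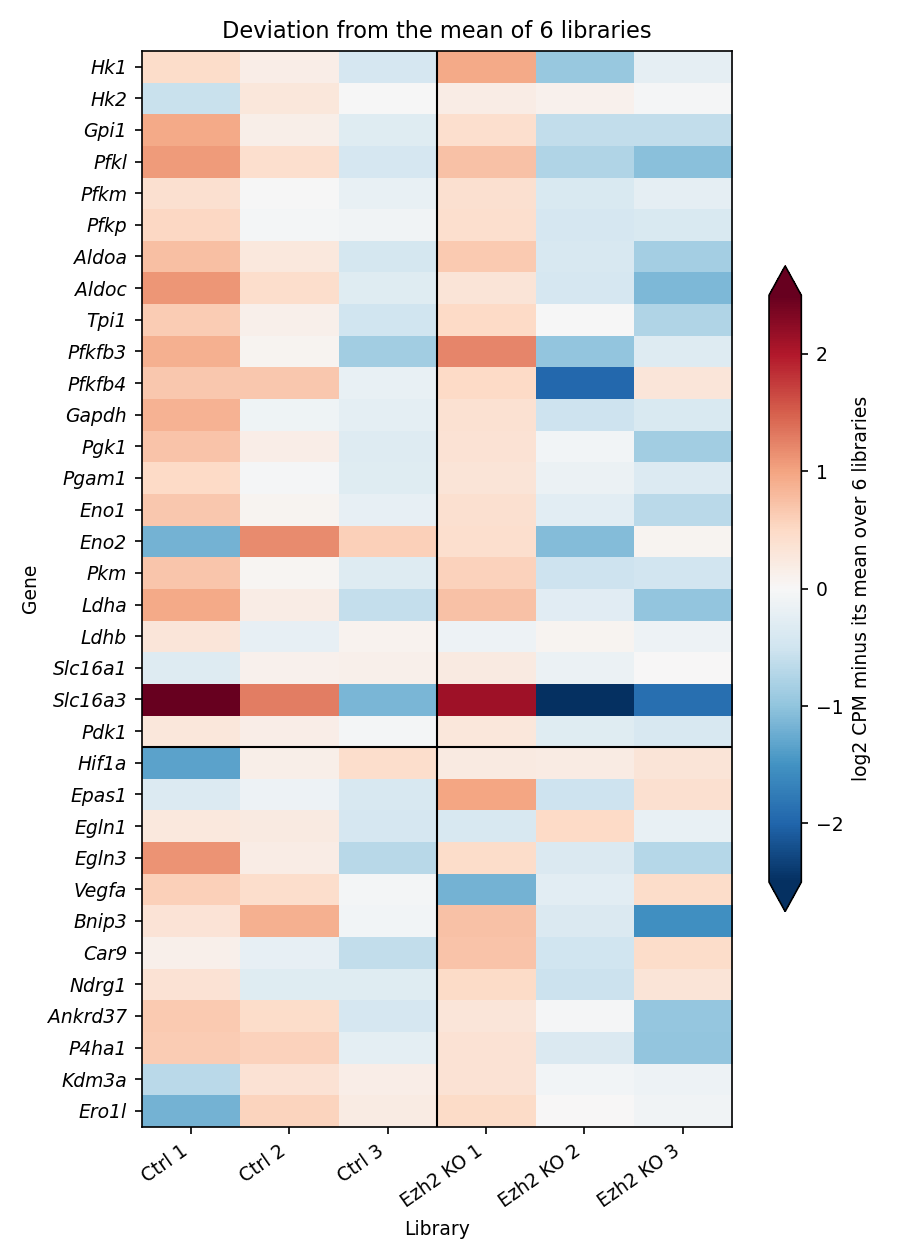
Deviation of log2 CPM from its mean over the 6 libraries for each gene (red above, blue below; the scale ends at 2.5 and Slc16a3 passes it in 2 libraries), with glycolysis genes above the horizontal line and Ctrl libraries left of the vertical line. Most glycolysis genes are red in both replicate 1 libraries and blue in Ezh2 KO replicates 2 and 3, while Hif1a, Kdm3a and Ero1l are blue in Ctrl replicate 1.

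Transcript base composition went with the values of Ctrl replicate 1, and mitochondrial reads ran nearly against the order of the summed enzymes. The 20 members that were highest in Ctrl replicate 1 had a median GC content of 52.7% (range 45.7% to 57.7%). The 6 that were lowest there (Hk2, Eno2, Slc16a1, Hif1a, Kdm3a and Ero1l) had one of 44.2% (41.3% to 54.8%), so the ranges overlapped. Across the 34 members, GC content and the log2 excess of Ctrl replicate 1 over the other Ctrl libraries had a Spearman's rho of 0.39. Across 15604 tested genes rho was 0.48. The median of that excess was 0.59 for the members and 0.031 for the 15604 genes. Genes are not independent replicates. The share of counts on mitochondrially encoded genes was 1.79%, 2.47% and 3.02% in the Ctrl libraries and 1.90%, 3.37% and 2.92% in the Ezh2 KO libraries, nearly the reverse of the order of the summed enzymes. Under an offset for GC content with the replicate block, 7 members had an unadjusted p under 0.05, all lower (Gpi1, Pfkl, Aldoc, Pgk1, P4ha1, Slc16a3 and Bnip3), against 3.25% of tested genes. Of the 9 named above 5 were among them, and the median log2 fold change was -0.17. The part of RNA quality in these differences was not tested.

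Balances between paralogs, which a shared scaling cannot move, overlapped between groups for all but 1 of 10 shares examined. Among single tested genes, 8.09% had groups that did not overlap. The shares of Pfkl, Pfkm and Pfkp are of the same sum, so the 10 are not independent. Per kb of exon, Aldoc made up 1.13%, 1.01% and 0.980% of aldolase A and C transcripts in Ctrl. In Ezh2 KO it made up 0.714%, 0.877% and 0.736%, so that each Ezh2 KO library lay below each Ctrl library. GC content was 56.9% for Aldoa and 51.9% for Aldoc, and differences tied to base composition need not cancel in a share. Their part was not tested. Ldhb made up 56.6%, 60.8% and 76.5% of lactate dehydrogenase transcripts in Ctrl and 52.6%, 72.0% and 78.7% in Ezh2 KO. Hk2 held 53.4% to 75.6% of hexokinase 1 and 2 transcripts in Ctrl and 57.7% to 82.8% in Ezh2 KO. Pfkl held 67.1% to 79.1% of the phosphofructokinase subunits in Ctrl and 59.3% to 75.7% in Ezh2 KO. The share of Slc16a3 in the 2 lactate transporters ran from 51.6% in Ctrl replicate 1 to 2.00% in Ezh2 KO replicate 2. Shares were compared as values, with no test.

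The rest of the pathway was read from 67 further genes of glycolysis, pyruvate handling and the Hif response, of which 57 were tested. The edgeR test called 0 of them, with or without the block, and 35 had a negative and 22 a positive log2 fold change (median -0.09). With the block 6 were lower (10.5%, against 3.12% of tested genes) and 1 higher (1.75%, against 5.98%) at an unadjusted p under 0.05. Of the 22 other glycolysis and pyruvate genes tested, 1 was lower (4.55%) and 1 higher at that level. Their median log2 fold change with group only was -0.036, and 12 were negative. Among the 28 other Hif targets tested, 5 were lower (17.9%) and 0 higher, with a median of -0.093 and 17 negative. The 7 other Hif regulators had 0 lower and 0 higher. The groups did not overlap for 2 of the 57, Slc2a3 and Fbp2 (3.51%, against 8.09% of tested genes). Slc2a3 (ENSMUSG00000003153), a high-affinity glucose transporter that feeds the pathway, stood at 4560, 6325 and 4410 CPM in Ctrl and 3173, 2081 and 2241 CPM in Ezh2 KO. Its log2 fold change was -1.03 ± 0.21 SE (unadjusted p = 0.00128, adjusted p = 0.976 in edgeR). DESeq2 with the block called it as the 1 gene of these 67 (adjusted p = 0.0348), where it called 50 genes in all (0.281%). That fit was added after the data were seen. Slc2a1, the other main glucose transporter, was at 489, 379 and 238 CPM against 424, 210 and 208 CPM. Fbp2, which encodes a fructose bisphosphatase of the reverse pathway, was at 5.55 to 6.14 CPM in Ctrl and 8.05 to 11.4 CPM in Ezh2 KO. Its log2 fold change was 0.70 ± 0.25 SE (unadjusted p = 0.0223, adjusted p = 0.976 in edgeR). Of the other regulators, Arnt, the partner of both Hif factors, was at 36.5 to 63.4 CPM in Ctrl and 33.5 to 69.2 CPM in Ezh2 KO.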

How the data were processed

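For 3 Ctrl and 3 Ezh2 KO libraries the authors deposited raw counts, 1 column a library and 1 row an Ensembl gene ID. The submitters' processing notes list TopHat2 2.0.11 (an aligner), featureCounts, Trimmomatic 0.33 and CASAVA 1.8.4, and NCBIM37 and mm9 as builds. Strand use and annotation version were not given in the sources used here, so overlapping and antisense genes cannot be parted. Symbols, exon lengths and the GC content of each gene's longest transcript came from GENCODE M21 by gene ID.

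Genes kept by filterByExpr (minimum count 10) were scaled by TMM and tested with the robust quasi-likelihood test of edgeR 4.0.16 (R 4.3.3), group as the only term, two-sided, Benjamini-Hochberg adjustment over all 16420 tested genes, threshold 0.05. The members and lists were chosen with earlier results of these data known. Genes given library by library were Hif1a, Epas1, Ldha and Pkm, members whose groups did not overlap or that had an unadjusted p under 0.05 in either fit, and the most abundant member of each role; other genes were singled out after their values were seen. The deviations of same-numbered libraries from their group means correlated across genes (Pearson's r 0.58, 0.37 and 0.19), so the numbers were taken to pair the libraries; this rests on the data, and Ctrl replicate 3 correlated better with Ezh2 KO replicate 2 (0.30). Alternatives were DESeq2 1.42.0 and its size factors, limma-voom (limma 3.58.1), other filters, the replicate block, a GC offset, each library left out and a threshold of 0.10. DESeq2 with the block and the block without each pair were added after seeing the data.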

Additional observations from a re-analysis of the deposited data

How the results depend on the processing

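The count of 0 members called held under the size factors of DESeq2, DESeq2, limma-voom, both other filters, the replicate block with and without the GC offset, a threshold of 0.10 and each library left out. The exception was the block without the replicate 1 pair, with 1 member and 32 genes called. Over all genes DESeq2 called 5, and with the block 50, of which 1 is a pathway gene. Members lower at an unadjusted p under 0.05 numbered 9 with the replicate block, 5 in DESeq2 with the block and 5 without the replicate 3 pair, and each of the latter fits held 4 of the 9. The block turned the sign of the log2 fold change of Hk1 (-0.13) and Pfkfb3 (-0.038), as did limma-voom (-0.13 and -0.081) and DESeq2 with the block (-0.14 and -0.054). Under the GC offset with the block the sign turned for Pfkfb3 (-0.035), Slc16a1 (-0.024) and Egln1 (0.11). None of these values was past the threshold, and the cause was not tested.

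Leaving out 1 library gave log2 fold changes of -0.65 to 0.37 for Hk1, -0.060 to 0.34 for Hk2, -0.40 to 0.065 for Pfkm, -0.50 to 0.15 for Tpi1, -0.82 to 0.60 for Pfkfb3 and -0.72 to 0.059 for Gapdh. They were -0.33 to 0.13 for Pgam1, -0.96 to 0.031 for Eno2, -0.70 to 0.078 for Pkm, -0.90 to 0.15 for Ldha, -0.073 to 0.15 for Slc16a1 and -3.88 to 0.14 for Slc16a3. For the hypoxia genes they were -0.052 to 0.63 for Hif1a, -0.33 to 0.14 for Egln1, -0.93 to 0.062 for Egln3, -0.19 to 0.26 for Kdm3a and -0.24 to 0.49 for Ero1l. Without a turn of sign they were -0.97 to -0.11 for Gpi1, -1.36 to -0.18 for Pfkl, -0.89 to -0.019 for Aldoa, -1.26 to -0.41 for Aldoc, -0.66 to -0.049 for Pgk1, -0.68 to -0.039 for Eno1, -1.01 to -0.33 for P4ha1 and -1.27 to -0.15 for Bnip3. The sign turned for 14 of 34 members without Ctrl replicate 1 and for 6 without Ezh2 KO replicate 1. Eno2 and Car9 were not tested under the stricter filter, which kept 32 members. Without division by exon length the share of Ldhb in Ctrl was 47.1% in place of 64.6%, and Pfkp (20.2%) exceeded Pfkm (7.43%). Low counts limit Car9, Vegfa and Eno2.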
